A study of Macaca mulatta with 24 samples.

Results

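The N-methyl-D-aspartate (NMDA) receptor subunit genes GRIN1, GRIN2A, GRIN2B, GRIN2C, GRIN2D and GRIN3A were followed in RNA-Seq of the nucleus accumbens core of 24 rhesus macaques that had drunk ethanol or served as controls. The 6 genes were listed by name and taken by exact symbol from 17208 gene symbols. All 6 of 6 were among the 13637 genes that averaged at least 1 TPM (length-normalized share of all transcripts in a library) and were tested. GRIN3B, a further subunit gene outside that list, averaged 0.280 TPM and was not tested. The animals were unrelated adult males, and each gave 1 library from a small dissection of the core. Drinkers began ethanol through schedule-induced polydipsia and then chose freely between ethanol and water each day for about a year, with no abstinence imposed at the end. Controls had water at every spout and a maltose dextrin solution to balance calories. There were 8 controls, 8 low and binge drinkers (LD, also written LD*) and 8 heavier drinkers (HD*), of which 4 were classed as heavy (HD) and 4 as very heavy (VHD). Daily intake ran from 0.47 to 2.07 g/kg in LD*, from 2.74 to 3.09 g/kg in HD and from 3.09 to 3.78 g/kg in VHD animals. Controls and HD* animals occurred together in cohorts 5 (3 and 4 animals) and 7a (2 and 4), and controls and LD* animals in cohorts 7a (2 and 3) and 7b (3 and 3). The other 2 LD* animals formed cohort 4 without a control, and HD and VHD animals were divided equally between cohorts 5 and 7a.

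NMDA receptors are glutamate-gated channels that pass calcium once depolarization has removed a magnesium block. Each receptor contains obligatory GluN1 subunits, which bind glycine or D-serine, together with GluN2 subunits, which bind glutamate and set the kinetics of the channel, or GluN3 subunits, which bind glycine and lower calcium flow. In the accumbens they carry part of the input from cortex, amygdala, hippocampus and thalamus onto medium spiny projection neurons, and ethanol inhibits their current.

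The libraries carried the transcripts of striatal tissue, in amounts that differed between animals. All 12 of 12 striatal projection neuron markers were detected in every library, and their summed level ran from 881 to 14800 TPM with a median of 9166 TPM, PENK being the most abundant (mean 2638 TPM). Control 6 stood apart with 881 TPM of these markers against 3297 TPM in the next lowest library, Control 8. Control 6 also had the highest sums of oligodendrocyte (10260 TPM), astrocyte (9470 TPM) and oligodendrocyte precursor markers (109.6 TPM). Markers of cortical excitatory neurons, 6 of 6 of them detected, summed to 1.42 TPM in HD 3 and 876.5 TPM in LD 4, with a median of 10.55 TPM. SLC17A7 was the most abundant of these (mean 79.9 TPM), and 5 values among SLC17A6, TBR1 and NEUROD2 were 0. Besides LD 4, the cortical markers summed to more than 100 TPM in Control 2 (415.2 TPM), LD 2 (249.6 TPM), HD 4 (244.6 TPM), Control 7 (155.7 TPM), LD 6 (152.1 TPM) and HD 2 (107.0 TPM). The comparisons of drinking groups are therefore given with all libraries and without these 7 and Control 6, a choice made after the values were seen.

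**Figure D1:**
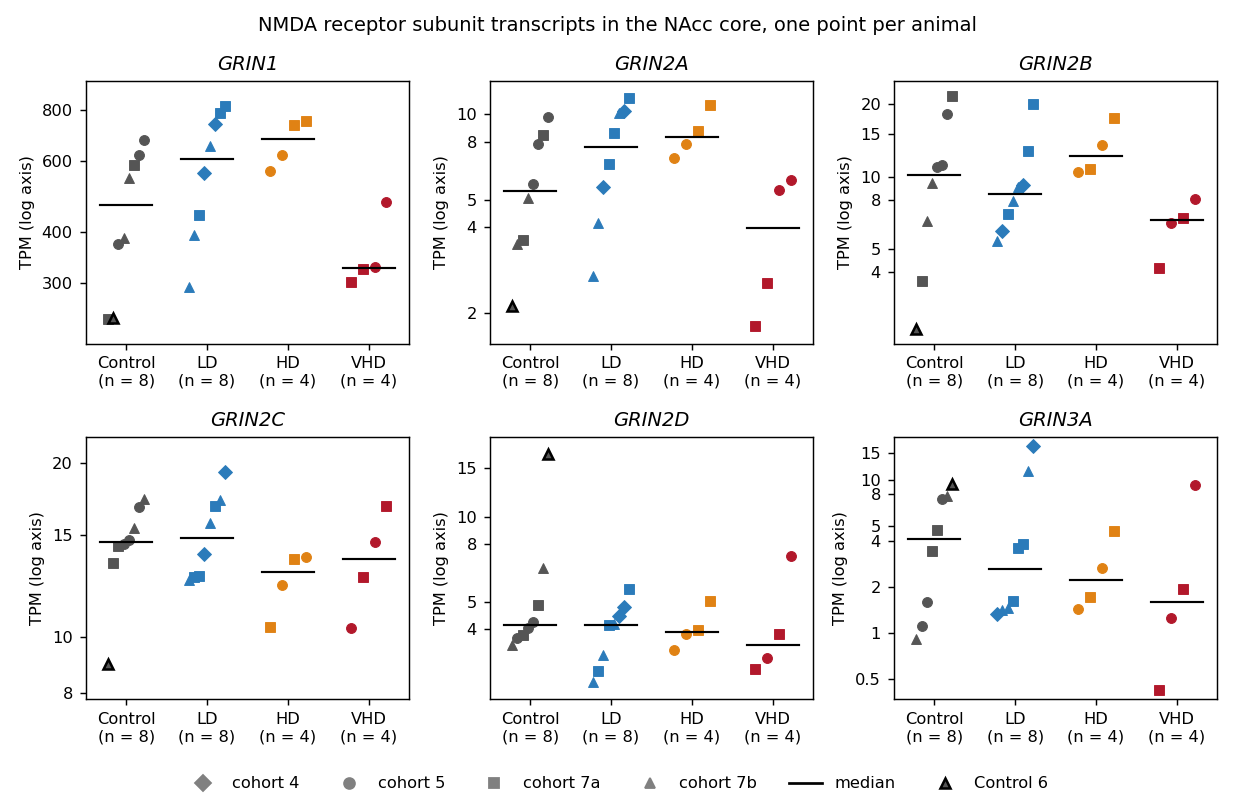
Level of each NMDA receptor subunit gene (TPM, logarithmic axis) in each of 24 animals by drinking category, with 1 point per animal, marker shape for cohort and a line at the median. Control 6 is outlined, and GRIN1, GRIN2A and GRIN2B have no VHD animal among the HD animals.

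GRIN1, which encodes the subunit that every NMDA receptor needs, was far more abundant than the rest. It averaged 520 ± 183 TPM (mean ± SD, n = 24) and stood above 98.1% of all genes. It exceeded GRIN2C in 24 of 24 animals, by 34.7-fold in geometric mean. The gene lengths behind the TPM are not stated, so levels, order and shares between genes rest on lengths that could not be checked. The other subunits lay close together, at 14.2 ± 2.47 TPM for GRIN2C, 9.95 ± 5.15 TPM for GRIN2B, 6.47 ± 2.93 TPM for GRIN2A, 4.69 ± 2.82 TPM for GRIN2D and 4.21 ± 4.09 TPM for GRIN3A. Neighbours in this order overlapped. GRIN2C was above GRIN2B in 19 of 24 animals, GRIN2B above GRIN2A in 21, GRIN2A above GRIN2D in 17 and GRIN2D above GRIN3A in 17. Among these neighbours the mean log2 ratio was larger than its SD only for GRIN2B over GRIN2A (0.61 ± 0.54).

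The subunits differed widely in how far animals were spread. GRIN2C, a glutamate-binding subunit, varied least, with a highest value 2.15-fold the lowest. GRIN1 varied 3.36-fold, GRIN2A 6.35-fold, GRIN2D 6.49-fold and GRIN2B 9.33-fold. Control 6 held the highest GRIN2D (16.8 TPM) and the lowest GRIN2B (2.32 TPM). The next values were 7.27 TPM of GRIN2D in VHD 2 and 3.69 TPM of GRIN2B in Control 8. The places of GRIN2D above GRIN1 and of GRIN2B above GRIN2A in this order thus rested on Control 6. From Control 8 to Control 7, which held the highest GRIN2B, the span of GRIN2B was 5.89-fold. GRIN3A, the glycine-binding subunit that modulates the channel, varied 38.9-fold, from 0.427 TPM in VHD 4 to 16.6 TPM in LD 2. Its next highest values were 11.4 TPM in LD 4, 9.30 TPM in Control 6 and 9.26 TPM in VHD 2, so high GRIN3A occurred in each of the 3 study groups.

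Of the summed TPM of the 4 GRIN2 genes, GRIN2C made up 41.7% on average, GRIN2B 26.9%, GRIN2A 17.6% and GRIN2D 13.9%. GRIN2A and GRIN2B, which form the most studied forebrain receptors, thus made up 44.5% together. Control 6 departed from this composition, with GRIN2D at 55.6% and GRIN2A plus GRIN2B at 14.7%. The shares of GRIN2A plus GRIN2B averaged 41.6% in controls, 45.8% among LD* and 46.0% among HD* animals, with ranges that overlapped.

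The 3 study groups overlapped in every NMDA receptor subunit. Neither the obligatory subunit nor any glutamate-binding or modulatory subunit passed the limma test in HD* or LD* animals against controls, or between the drinking groups. The paper's own tests of read counts with DESeq2 came out otherwise. They called genes in HD* against controls and in HD* against LD*, and GRIN2A was listed as downregulated in HD* against controls. The paper also named GRIN2C among the molecules shared by pathways inhibited in these drinkers. Why the limma and DESeq2 results differ was not tested. No gene of 13637 passed at a limma adjusted p under 0.05 in HD* against controls (0%, 775 genes at unadjusted p under 0.05), in LD* against controls (0%, 387 genes) or in HD* against LD* (0%, 147 genes). The unadjusted counts moved widely when 1 animal was left out. In HD* against controls they ran from 313 without VHD 4 to 2161 without VHD 2. In LD* against controls they ran from 245 without Control 6 to 706 without LD 4. In HD* against LD* the range was 71 without VHD 4 to 548 without VHD 2. The 2 drinking groups were compared with the same 8 controls, so their differences are not independent and are given side by side. The median log2 difference over all genes was −0.12 in HD* and −0.03 in LD* against controls, and it was −0.01 and 0.01 after TMM rescaling, which turned the sign of no subunit in these comparisons.

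GRIN1 ran from 245 TPM through a median of 467 to 675 TPM in controls, from 293 through 607 to 821 TPM in LD* and from 302 through 521 to 751 TPM in HD* animals. The highest values were in LD 8 and LD 7 and the lowest in Control 8 and Control 6, and each group covered most of the range of the others. The log2 difference was 0.17 in HD* (95% CI −0.37 to 0.70, limma adjusted p = 0.808) and 0.37 in LD* against controls (−0.17 to 0.90, adjusted p = 1.00). Between HD* and LD* animals GRIN1 differed by −0.20 (−0.73 to 0.34, adjusted p = 0.937). The direction in HD* differed between cohorts, with −0.16 in cohort 5 and 0.35 in cohort 7a. GRIN1 in LD* was above controls by 0.80 in cohort 7a and 0.18 in cohort 7b. HD* stood at −0.45 from LD* in cohort 7a, the only cohort with both drinking groups.

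GRIN2A, which gives receptors fast decay, had medians of 5.37 TPM in controls (2.11 to 9.80 TPM), 7.63 TPM in LD* (2.70 to 11.4 TPM) and 6.42 TPM in HD* animals (1.79 to 10.8 TPM). The lowest GRIN2A values were those of VHD 4, Control 6 and VHD 3, and the ranges overlapped almost entirely. Its log2 difference was 0.07 in HD* (−0.56 to 0.71, adjusted p = 0.928) and 0.32 in LD* against controls (−0.31 to 0.96, adjusted p = 1.00). HD* stood at −0.25 from LD* (−0.88 to 0.38, adjusted p = 0.937). Within cohorts, GRIN2A in HD* was below controls by −0.20 in cohort 5 and −0.19 in cohort 7a, whereas in LD* it was above them by 0.55 in cohort 7a and 0.44 in cohort 7b. The difference of HD* from LD* in cohort 7a was −0.74.

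GRIN2B, which gives slow decay and binds CaMKII, had medians of 10.1 TPM in controls (2.32 to 21.7 TPM), 8.49 TPM in LD* (5.39 to 20.1 TPM) and 9.25 TPM in HD* animals (4.19 to 17.5 TPM). Controls held both the lowest value, in Control 6, and the highest, in Control 7. The log2 difference of GRIN2B was 0.04 in HD* (−0.65 to 0.73, adjusted p = 0.963) and 0.04 in LD* against controls (−0.66 to 0.73, adjusted p = 1.00). The 2 drinking groups differed by 0.00 (−0.69 to 0.70, adjusted p = 0.997). GRIN2B in HD* was at −0.45 in cohort 5 and −0.10 in cohort 7a from the controls there, and in LD* at 0.36 in cohort 7a and 0.38 in cohort 7b. From LD* in cohort 7a, HD* stood at −0.46.

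GRIN2C and GRIN2D form receptors with weaker magnesium block. GRIN2C ran from 8.99 through 14.6 to 17.3 TPM in controls, from 12.6 through 14.8 to 19.3 TPM in LD* and from 10.4 through 13.2 to 16.8 TPM in HD* animals. Its log2 difference was −0.13 in HD* (−0.38 to 0.13, adjusted p = 0.727) and 0.07 in LD* against controls (−0.19 to 0.33, adjusted p = 1.00), with −0.20 between HD* and LD* (−0.45 to 0.06, adjusted p = 0.937). GRIN2C thus kept the narrowest interval of the 6 subunits. Without Control 6 its differences from controls were −0.21 in HD* and −0.02 in LD*. Within cohorts GRIN2C in HD* was at −0.25 in cohort 5 and −0.07 in cohort 7a from controls, and in LD* at 0.01 in cohort 7a and 0.16 in cohort 7b. HD* was at −0.08 from LD* in cohort 7a.

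GRIN2D ran from 3.50 through 4.13 to 16.8 TPM in controls, from 2.59 through 4.15 to 5.56 TPM in LD* and from 2.88 through 3.84 to 7.27 TPM in HD* animals. The value of 16.8 TPM belonged to Control 6, and the other controls lay between 3.50 and 6.61 TPM. The log2 difference of GRIN2D was −0.30 in HD* (−0.76 to 0.16, adjusted p = 0.706) and −0.34 in LD* against controls (−0.80 to 0.12, adjusted p = 1.00). Without Control 6 these became −0.08 and −0.13. The drinking groups differed from each other by 0.04 (−0.42 to 0.50, adjusted p = 0.971). In cohort 7b, which held Control 6, GRIN2D in LD* stood at −0.99 from controls, against −0.07 in cohort 7a, and in HD* it was at 0.06 in cohort 5 and −0.13 in cohort 7a.

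GRIN3A ran from 0.919 through 4.07 to 9.30 TPM in controls, from 1.33 through 2.60 to 16.6 TPM in LD* and from 0.427 through 1.84 to 9.26 TPM in HD* animals. Animals were spread several-fold in each group, and the ranges overlapped. GRIN3A differed by −0.49 in HD* (−1.45 to 0.46, adjusted p = 0.718) and −0.03 in LD* against controls (−0.99 to 0.93, adjusted p = 1.00), and by −0.46 between HD* and LD* (−1.42 to 0.49, adjusted p = 0.937). In HD* it stood at 0.07 from controls in cohort 5 and −0.83 in cohort 7a, and in LD* at −0.38 in cohort 7a and −0.42 in cohort 7b. These intervals are wide because the animals of 1 group differed so much in GRIN3A.

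**Figure D2:**
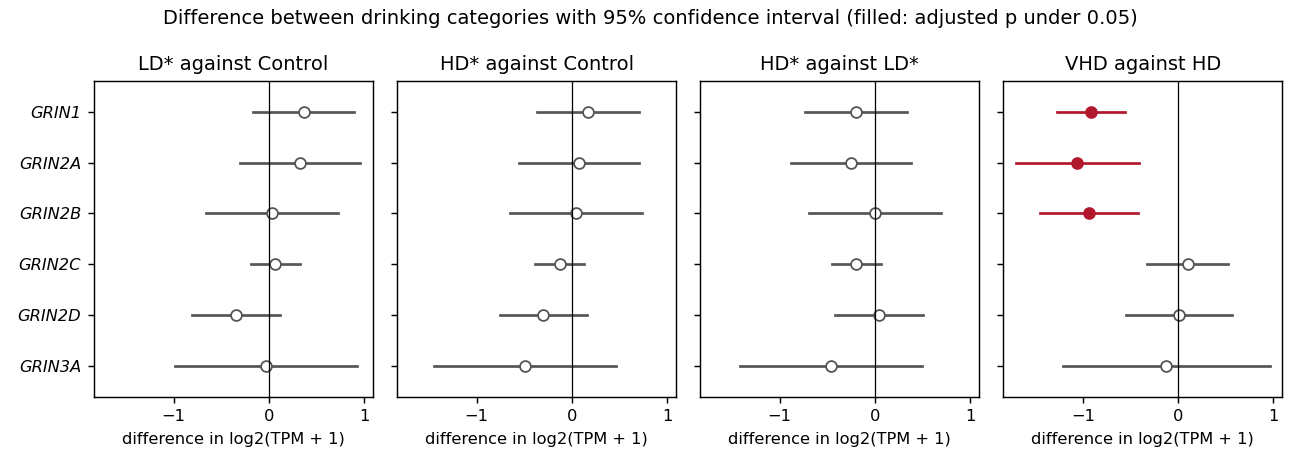
Log2 differences of the 6 subunit genes with 95% CI for LD* against controls, HD* against controls, HD* against LD* and VHD against HD, filled where the limma adjusted p is under 0.05. Only GRIN1, GRIN2A and GRIN2B in VHD against HD are filled.

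Several choices turned or moved the direction of the small differences. Single libraries did so as well: GRIN1 in HD* against controls was 0.05 without Control 8, and GRIN3A in HD* against controls ran from −0.73 without VHD 2 to −0.32 without VHD 4. In HD* against LD*, GRIN1 ran from −0.33 without LD 5 to −0.10 without VHD 4, GRIN2A from −0.405 to −0.07 without the same animals, and GRIN3A from −0.70 without VHD 2 to −0.185 without LD 2. In LD* against controls GRIN2A ran from 0.18 without Control 6 to 0.48 without LD 5. With cohort in the model, HD* stood at −0.01 from controls in GRIN1, −0.21 in GRIN2A and −0.27 in GRIN2B, and at −0.57 from LD* in GRIN2B. With the striatal projection neuron markers in the model, the values in HD* against controls were −0.05 in GRIN1, −0.08 in GRIN2A and −0.22 in GRIN2B. Leaving out the 8 libraries that stood apart gave −0.11, −0.08 and −0.03 for GRIN1, GRIN2A and GRIN2B in HD* against controls, and −0.20, −0.15 and −0.18 for GRIN2C, GRIN2D and GRIN3A. Among the 5 LD* animals and 5 controls kept, the differences were 0.41, 0.08, 0.20, −0.12, −0.14 and −0.26 in the same order of genes. Between the 6 HD* and 5 LD* animals kept they were −0.52, −0.15, −0.23, −0.08, −0.01 and 0.08. No gene passed after that exclusion in HD* against controls (0, 238 at unadjusted p under 0.05 by limma), in LD* against controls (0, 370 genes) or in HD* against LD* (0, 194 genes).

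Balance between subunits was compared as ratios of TPM, GRIN2B over GRIN2A being a common index of receptor composition. The GRIN2B to GRIN2A ratio ran from 0.581 in LD 2 to 2.65 in VHD 3, with medians of 1.85 in controls, 1.71 among LD* and 1.50 among HD* animals. Its log2 difference in HD* against controls was 0.00 (exact permutation p = 0.993) and in LD* against controls −0.31 (exact p = 0.306). The value in LD* ran from −0.41 without Control 8 to −0.14 without LD 2. The ratio of GRIN3A to GRIN1 differed most, by −0.87 in HD* against controls (exact p = 0.279, adjusted p = 0.797 over 12 tests), and −0.41 in LD* against controls (exact p = 0.631), values that became −0.54 and −0.08 without Control 6. The value in HD* was −1.26 without VHD 2, and that in LD* was −0.74 without LD 2. The adjusted p of the 12 ratio tests ran from 0.797 to 0.993, and animals of the 3 groups overlapped in each ratio.

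Genes whose products hold, modify or follow the receptor were read beside the subunits. Of 75 such genes 72 were tested, and 0 of 72 passed limma in HD* or LD* against controls. In HD* against controls the median log2 difference was −0.04 over the 6 subunits, 0.04 over 23 scaffold and trafficking partners, 0.02 over 22 kinases and phosphatases, −0.20 over 12 genes of D-serine and glycine supply and removal, 0.06 over 9 genes of calcium and nitric oxide signalling and −0.15 over 6 surface partners, beside −0.12 over all genes. In LD* against controls the same medians were 0.05, 0.15, 0.13, −0.11, 0.14 and 0.07, beside −0.03 over all genes. Taking the 2 largest differences of each list in HD* against controls, the widest were −0.51 in RELN, an extracellular protein gene (95% CI −0.97 to −0.05), −0.49 in CAMK2D, a kinase gene (−1.40 to 0.41), 0.47 in PPP1R1B (−0.39 to 1.33), −0.40 in the glycine transporter gene SLC6A9 (−0.94 to 0.13) and 0.37 in ACTN2 (−0.60 to 1.34), with adjusted p from 0.706 to 0.770. PPP1R1B was at 304 TPM in Control 6, against 1109 TPM in the next lowest control, Control 8.

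Across HD* and LD* the partners differed by a median of −0.14 (12 higher and 60 lower of 72), with −0.20 over the 6 subunits and −0.08 over all genes, of which 9990 of 13637 stood lower; after TMM rescaling the median over all genes was −0.01. Of the markers, 10 of 12 pan-neuronal (median −0.18), 6 of 6 cortical (−0.33) and 4 of 4 oligodendrocyte precursor markers (−0.175) stood lower in HD* than in LD* animals, and 0 passed. Interneuron markers stood lower in 7 of 10 genes (−0.03) and astrocyte markers in 6 of 9 (−0.07). Higher in HD* stood 7 of 10 microglia (0.19), 8 of 11 oligodendrocyte (0.11) and 7 of 12 striatal projection neuron markers (0.08). NOS1AP, an adaptor of neuronal nitric oxide synthase, differed most among the calcium and nitric oxide genes, by −0.61 (−1.20 to −0.03, adjusted p = 0.937). DLG4, the most abundant scaffold gene, averaged 444 TPM, close to GRIN1.

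Marker levels stood beside these differences as follows. No marker passed (0 of 12 striatal projection neuron markers and 0 of 11 oligodendrocyte markers). The striatal projection neuron markers stood higher in 12 of 12 genes in both HD* (median 0.44) and LD* against controls (median 0.39), which rested on Control 6, the medians being 0.03 and −0.015 without it, and their summed level averaged 8243 TPM in controls, 8988 TPM among LD* and 9289 TPM among HD* animals. Oligodendrocyte markers stood lower in 11 of 11 genes in both (medians −0.38 and −0.47, or −0.20 and −0.28 without Control 6), as did 4 of 4 precursor markers (−0.49 and −0.28, or −0.44 and −0.24) and 9 of 9 astrocyte markers (−0.22 and −0.30, or −0.23 and −0.25). Striatal interneuron markers stood lower in 8 of 10 genes in both, with and without Control 6 (−0.24 and −0.28, or −0.16 and −0.175), and microglia markers in 6 of 10 in HD* and 10 of 10 in LD* (−0.03 and −0.20, or 0.02 and −0.16 without Control 6). In HD* against controls 9 of 12 pan-neuronal markers (−0.15, or −0.04 without Control 6) and 5 of 6 cortical markers (−0.24, or −0.23) stood lower. In LD* against controls 7 of 12 pan-neuronal markers (0.03, or 0.09 without Control 6) and 3 of 6 cortical markers (0.02, or 0.16) stood higher. Of all 13637 genes 10608 stood lower in HD* and 7918 in LD*. Whether cell composition accounts for any subunit difference between the study groups was not tested.

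HD and VHD animals differed in 3 of the 6 NMDA receptor subunits. The obligatory subunit gene GRIN1 and the glutamate-binding subunit genes GRIN2A and GRIN2B were lower in VHD animals, whereas GRIN2C, GRIN2D and GRIN3A overlapped. The differences ran through much of the transcriptome, with 1997 of 13637 genes (14.6%) at a limma adjusted p under 0.05, 441 higher and 1556 lower (11.4%) in VHD animals. The median over all genes was −0.17, and TMM rescaling moved it to 0.01 and the split of genes to 1170 higher and 1411 lower. The bulk libraries cannot tell fewer cells of a type from less RNA per cell.

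GRIN1 was at 565, 622, 751 and 737 TPM in HD 1 to HD 4 and at 476, 328, 324 and 302 TPM in VHD 1 to VHD 4. Every VHD animal lay below every HD animal, with VHD 1 nearest to them. The log2 difference was −0.92 (95% CI −1.27 to −0.56, limma adjusted p = 0.00727), and −0.71 after TMM rescaling. It was −0.58 in cohort 5 and −1.25 in cohort 7a, with 2 animals of each category in both. GRIN1 passed without any 1 of the 8 libraries, with adjusted p from 0.00235 to 0.0365.

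GRIN2A was at 6.98, 7.88, 10.8 and 8.74 TPM in HD 1 to HD 4 and at 5.85, 5.41, 2.54 and 1.79 TPM in VHD 1 to VHD 4. The categories did not overlap, and VHD 3 and VHD 4 of cohort 7a lay farthest down. The difference was −1.06 (−1.70 to −0.41, adjusted p = 0.0342), and −0.91 after TMM rescaling, with −0.35 in cohort 5 and −1.77 in cohort 7a. GRIN2A passed only without VHD 1 (adjusted p = 0.0215) or VHD 2 (0.00896). It did not pass without HD 1 (0.0586), HD 2 (0.0826), HD 3 (0.110), HD 4 (0.0843), VHD 3 (0.122) or VHD 4 (0.0536).

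GRIN2B was at 13.6, 10.5, 17.5 and 10.7 TPM in HD 1 to HD 4 and at 8.04, 6.40, 6.73 and 4.19 TPM in VHD 1 to VHD 4. Again no VHD animal reached the lowest HD animal. The difference was −0.94 (−1.45 to −0.43, adjusted p = 0.0235), and −0.76 after TMM rescaling, with −0.66 in cohort 5 and −1.22 in cohort 7a. GRIN2B did not pass without HD 1 (adjusted p = 0.0637), HD 2 (0.0502), HD 3 (0.0904), HD 4 (0.0507) or VHD 3 (0.0702), and passed without each of the other 3. That every VHD animal lay below every HD animal held for 3 of 6 subunits and for 2445 of all genes tested (17.9%).

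GRIN2C was at 13.7, 12.3, 10.4 and 13.6 TPM in HD 1 to HD 4 and at 14.6, 10.4, 12.7 and 16.8 TPM in VHD 1 to VHD 4, a difference of 0.10 (−0.33 to 0.53, adjusted p = 0.751). GRIN2D was at 3.36, 3.85, 3.96 and 5.02 TPM in HD and at 3.16, 7.27, 3.84 and 2.88 TPM in VHD animals, a difference of 0.01 (−0.55 to 0.56, adjusted p = 0.987). GRIN3A was at 1.43, 2.67, 1.73 and 4.64 TPM in HD and at 1.25, 9.26, 1.95 and 0.427 TPM in VHD animals, a difference of −0.12 (−1.21 to 0.96, adjusted p = 0.886). VHD 2 was highest in both GRIN2D and GRIN3A, and the cohorts went opposite ways in these genes: 0.35 and 0.69 in cohort 5, −0.33 and −0.94 in cohort 7a. The same values put as shares of the GRIN2 sum, which were not tested, gave GRIN2A plus GRIN2B 54.6, 53.1, 66.3 and 51.1% in HD 1 to HD 4 and 43.9, 40.1, 35.9 and 23.3% in VHD 1 to VHD 4.

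The calls on GRIN1, GRIN2A and GRIN2B depended on the model. With cohort in the model all 3 passed limma at the same log2 differences (adjusted p = 0.00611, 0.0237 and 0.0192), among 2757 genes. With a pan-neuronal marker level in the model the values were −0.74 for GRIN1, −0.30 for GRIN2A and −0.76 for GRIN2B (adjusted p = 0.0838, 0.514 and 0.166), and 442 genes passed. With the striatal projection neuron level they were −0.47, −1.12 and −0.56 (adjusted p = 0.544, 0.488 and 0.618), and 0 genes passed limma, with 1484 at unadjusted p under 0.05, while GRIN2C moved to 0.70, GRIN2D to −1.32 and GRIN3A to −3.34 (adjusted p = 0.488, 0.448 and 0.448). That level did not overlap between categories, with a mean log2 of 8.695 to 8.966 in HD and 7.39 to 8.157 in VHD animals. This model could therefore hardly tell the level from the category, and its loss of calls decides nothing. With the cortical level GRIN1 and GRIN2B passed and GRIN2A did not (−1.08, adjusted p = 0.0870), among 658 genes. In a model of all 24 animals by 4 categories the adjusted p was 0.0682, 0.0728 and 0.141, and 0 genes passed, with 4608 at unadjusted p under 0.05. Without the libraries that stood apart, which left 2 HD and 4 VHD animals, the values were −0.89, −1.09 and −1.19 (adjusted p = 0.109, 0.221 and 0.123), and 25 genes passed. Over all alternatives that kept every animal or dropped a set of libraries, the adjusted p ran from 0.00549 to 0.544 for GRIN1, from 0.0237 to 0.514 for GRIN2A and from 0.0192 to 0.618 for GRIN2B. When genes under 1 TPM were kept, GRIN2A (adjusted p = 0.0823) and GRIN2B (0.0501) did not pass, and a floor of 10 TPM removed both from the test. The count of 1997 genes became 1094 without HD 1, 681 without HD 2, 607 without HD 3, 723 without HD 4, 476 without VHD 3 and 4651 without VHD 2.

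Markers of projection neurons differed in the same animals as GRIN1. Striatal projection neuron markers were lower in 12 of 12 genes in VHD animals, 11 of them called (median −1.08), and summed to 12920, 11150, 12850 and 11340 TPM in HD 1 to HD 4 and to 7777, 4334, 6501 and 7439 TPM in VHD 1 to VHD 4, with none at 0. Pan-neuronal markers were called lower in 5 of 12 genes (median −0.74), and their sums were 6131, 6716, 6999 and 7254 TPM in HD and 4897, 5374, 3608 and 3371 TPM in VHD animals. Microglia markers were called higher in 6 of 10 genes (median 0.65), summing to 429.1, 506.4, 441.5 and 391.7 TPM in HD and 513.0, 788.1, 895.2 and 661.2 TPM in VHD animals. Astrocyte markers stood higher in 8 of 9 genes, 2 of them called (median 0.30), summing to 3944, 3583, 2255 and 3510 TPM in HD and 5203, 7920, 5742 and 4973 TPM in VHD animals. The 10 most abundant genes took 3.925, 3.785, 3.965 and 3.922% of the library in HD 1 to HD 4 and 4.254, 4.157, 5.416 and 5.917% in VHD 1 to VHD 4, and VHD 4 had the lowest TMM factor of the 8 (0.689) and the fewest genes above 0 (15697). Cortical markers summed to 6.61, 107.0, 1.42 and 244.6 TPM in HD and 13.5, 7.62, 2.33 and 23.1 TPM in VHD animals, and 0 of 6 were called. Whether fewer projection neurons in the VHD dissections, or the makeup of the libraries, underlie the lower GRIN1, GRIN2A and GRIN2B was not tested.

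Part of the receptor's partners were also lower in VHD animals. By sign alone 53 of 72 partners stood lower, beside 8893 of 13637 genes. In VHD against HD, 21 of 72 partners (29.2%) passed, 1 higher and 20 lower (median −0.34), beside 3 of 6 subunits (median −0.52) and 14.6% of all genes. Kinases and phosphatases gave 10 of 22 (median −0.65), scaffold and trafficking partners 6 of 23 (median −0.33), calcium and nitric oxide genes 3 of 9 (median −0.36), surface partners 1 of 6 (median −0.58) and co-agonist genes 1 of 12 (median 0.12). ACTN2, an actinin that anchors GluN1, was lower by −1.52 (adjusted p = 0.00363, 55.5 against 155 TPM), and PPP1R1B, the DARPP-32 gene of projection neurons, by −1.03 (adjusted p = 0.0152, 1828 against 3558 TPM). EPHB1, a surface partner, was lower by −0.88 (adjusted p = 0.0125). SHANK1, a postsynaptic scaffold, was the 1 partner called higher, by 1.13 (adjusted p = 0.00514, 80.0 against 35.4 TPM).

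No subunit passed a test of its slope on intake within the drinking groups. The model held drinking group but not cohort. LD 2 and LD 1, which drank least, made up cohort 4, so low intake and that cohort cannot be told apart. The 6 fitted slopes were negative, and TMM rescaling turned none of these signs, but leaving out 1 animal turned those of GRIN2B, GRIN2C and GRIN3A. By limma 0 of 13637 genes passed (0%, 1107 at unadjusted p under 0.05), and the median slope was −0.31 over the subunits and −0.11 over all genes, or 0.00 over all genes after TMM rescaling. The count at unadjusted p under 0.05 was 300 without LD 5 and 2263 without LD 2. The log2 slope per g/kg was −0.44 for GRIN1 (95% CI −1.04 to 0.16, adjusted p = 0.508), −0.44 for GRIN2A (−1.20 to 0.33, adjusted p = 0.574) and −0.11 for GRIN2B (−0.80 to 0.58, adjusted p = 0.881). It was −0.13 for GRIN2C (−0.45 to 0.18, adjusted p = 0.684), −0.19 for GRIN2D (−0.61 to 0.23, adjusted p = 0.652) and −0.80 for GRIN3A (−1.91 to 0.31, adjusted p = 0.513). The GRIN3A slope rested on LD 2, which drank least and had the highest GRIN3A, and was 0.27 without it. LD 2 also moved GRIN1 (−0.92 without it), GRIN2B (−0.75) and GRIN2C (0.07). Without LD 5 the slopes were −0.28 for GRIN1, −0.24 for GRIN2A, 0.02 for GRIN2B and −0.11 for GRIN2D, and GRIN2B was at 0.01 without HD 3. Markers had slopes as well, none of which passed: the median was −0.37 over the striatal projection neuron markers (12 of 12 negative), −0.49 over the pan-neuronal markers (11 of 12 negative), −0.67 over the cortical markers (6 of 6 negative), −0.27 over the precursor markers (4 of 4 negative), −0.25 over the endothelial markers (6 of 6 negative) and 0.52 over the oligodendrocyte markers (11 of 11 positive). Whether these account for the slopes of the subunits was not tested. Without LD 2 a single gene passed, FAM159A (−2.77, adjusted p = 0.0204), which was chosen after its value was seen.

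Within each drinking group of 8 animals, 0 of 12 correlations of a subunit with intake passed. GRIN2C in HD* had a positive r of 0.36 (exact permutation p = 0.379) and rho of 0.30 (exact p = 0.471), with r of 0.46 without VHD 1 and HD 1. GRIN2B in LD* had r = 0.27 (exact permutation p = 0.496) but rho = −0.16 (exact p = 0.717), with r of −0.19 without LD 1 and LD 2. GRIN2B in HD* animals had r = −0.63 (exact permutation p = 0.0899, adjusted p = 0.539) and rho = −0.81 (exact p = 0.0180, adjusted p = 0.216 over 12 relations), and r was −0.94 without VHD 1 and HD 1. VHD 1 drank most and had the highest GRIN2B of the VHD animals. GRIN2C in LD* animals had r = −0.65 (exact permutation p = 0.0687, adjusted p = 0.539) and rho = −0.65 (exact p = 0.0917), with r of −0.55 without LD 1 and LD 2. GRIN1 in HD* animals had r = −0.47 (exact p = 0.250) and rho = −0.65 (exact p = 0.0917), with r of −0.83 without VHD 1 and HD 1. Intake in HD* ran from 2.74 to 3.09 g/kg in HD and from 3.09 to 3.78 g/kg in VHD animals. Intake and category therefore cannot be told apart in HD*, and these correlations are not separate from the VHD against HD differences.

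No subunit passed a test between cohorts. In limma's F test over 4 cohorts 0 of 13637 genes passed (0%, 1140 at unadjusted p under 0.05), and the adjusted p was 0.647 for GRIN1, 0.540 for GRIN2A, 0.540 for GRIN2B, 0.920 for GRIN2C, 0.743 for GRIN2D and 0.881 for GRIN3A. Cohort 7b had the lowest medians of GRIN2A, 3.82 TPM against 6.98 TPM in cohort 5 and 8.44 TPM in cohort 7a, and of GRIN1, 392 TPM against 565 and 586 TPM. Ranges of the cohorts overlapped in both genes.

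The difference of HD* from controls was also compared between cohorts 7a and 5, and that of LD* between cohorts 7b and 7a. For HD*, 0 genes passed limma (0%, 294 at unadjusted p under 0.05), and the subunits' interaction values were 0.50 for GRIN1, 0.02 for GRIN2A, 0.36 for GRIN2B, 0.19 for GRIN2C, −0.18 for GRIN2D and −0.90 for GRIN3A. For LD*, 0 genes passed (0%, 312 at unadjusted p under 0.05), and the values were −0.62 for GRIN1, −0.11 for GRIN2A, 0.02 for GRIN2B, 0.15 for GRIN2C, −0.91 for GRIN2D and −0.04 for GRIN3A. GRIN1 was the subunit with the widest gap between cohorts in LD*, apart from GRIN2D with Control 6. TMM rescaling turned the sign of GRIN2A (0.03) and GRIN3A (0.09) in LD*, where it moved the median over all genes from −0.16 to 0.01.

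Across the 24 animals GRIN1, GRIN2A and GRIN2B varied together, and GRIN2D varied with GRIN3A. Of 15 pairs 5 passed (33.3%), 4 of them positive, the smallest at an r of 0.574 in size, which 22.8% of all pairs of genes tested also reached. GRIN1 and GRIN2B had r = 0.77 (permutation p = 2e-05, adjusted p = 0.00015 over 15 pairs) and rho = 0.75 (p = 5e-05), with r of 0.66 without Control 6 and Control 8 and of 0.67, 0.88 and 0.66 in cohorts 5, 7a and 7b. GRIN2A and GRIN2B had r = 0.75 (permutation p = 1e-05, the smallest possible, adjusted p = 0.00015) and rho = 0.67 (p = 0.00045), with r of 0.65 without Control 6 and VHD 4 and of 0.80, 0.81 and 0.78 in the same cohorts. The link of GRIN1 with GRIN2A was looser, at r = 0.66 (permutation p = 0.00051, adjusted p = 0.00255) and rho = 0.61 (p = 0.00168), with r of 0.57 without Control 6 and Control 8 and of 0.34, 0.83 and 0.35 within cohorts.

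GRIN2D and GRIN3A had r = 0.57 (permutation p = 0.00226, adjusted p = 0.00847 over 15 pairs) and rho = 0.65 (p = 0.00076), with r of 0.52 without VHD 2 and Control 6 and of 0.81, 0.48 and 0.67 in cohorts 5, 7a and 7b. GRIN2C and GRIN2D went opposite ways, with r = −0.58 (permutation p = 0.00396, adjusted p = 0.0119) and rho = −0.35 (p = 0.0917). The r was weaker without Control 6 (−0.32), and −0.39 without LD 2 and Control 6. Within cohorts 5, 7a and 7b it was −0.68, −0.59 and −0.74, and Control 6 belonged to cohort 7b. After TMM rescaling 3 further pairs passed, all negative: GRIN1 with GRIN2D (−0.51), GRIN1 with GRIN3A (−0.51) and GRIN2B with GRIN2D (−0.53).

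**Figure D3:**
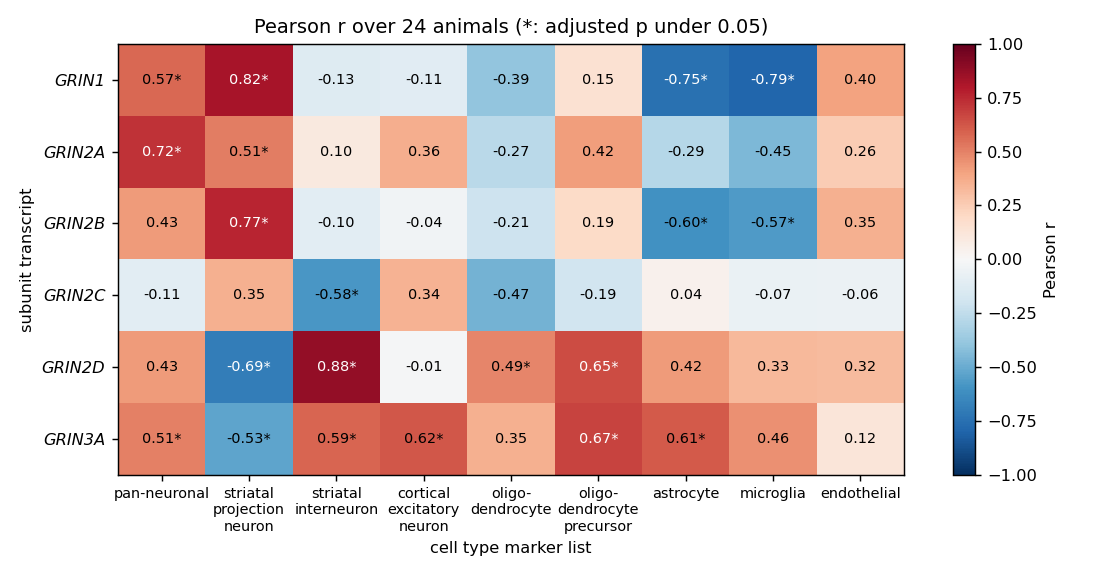
Correlation r of each subunit gene with the mean log2 level of each marker list over 24 animals, with * where the adjusted p over 54 relations is under 0.05. GRIN1 and GRIN2B go with striatal projection neuron markers, GRIN2D with striatal interneuron markers and GRIN3A with several other lists.

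The subunits shared some marker lists and differed in others, and no test compared the lists. The highest positive r was with projection neuron markers for GRIN1 and GRIN2B, pan-neuronal markers for GRIN2A, interneuron markers for GRIN2D and oligodendrocyte precursor markers for GRIN3A. Of 54 relations with marker lists 20 passed (37.0%), 13 of them positive, the smallest at an r of 0.488 in size, which 31.3% of the relations of all genes tested with these lists also reached. The subunits' share was thus near that of genes at large. GRIN1 with striatal projection neuron markers had r = 0.82 (permutation p = 1e-05, the smallest possible, adjusted p = 0.00018 over 54 relations) and rho = 0.84, with r of 0.86 without Control 6 and Control 8 and of 0.97, 0.95 and 0.84 in cohorts 5, 7a and 7b. GRIN1 had a negative r with microglia markers (r = −0.79, permutation p = 1e-05, adjusted p = 0.00018, rho = −0.80, r of −0.82 without Control 5 and VHD 3) and with astrocyte markers (r = −0.75, permutation p = 2e-05, adjusted p = 0.000216, rho = −0.78, r of −0.68 without VHD 2 and Control 6). Within cohorts 5, 7a and 7b these were −0.85, −0.90 and −0.52 for microglia and −0.98, −0.81 and −0.57 for astrocytes. GRIN1 passed with pan-neuronal markers too (r = 0.57, permutation p = 0.00308, adjusted p = 0.0128, rho = 0.48, r of 0.45 without LD 5 and VHD 4 and of 0.33, 0.91 and 0.05 within cohorts), but not after TMM rescaling (0.43).

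GRIN2B with striatal projection neuron markers had r = 0.77 (permutation p = 2e-05, adjusted p = 0.000216) and rho = 0.73, with r of 0.63 without Control 6 and Control 8 and of 0.79, 0.87 and 0.79 within cohorts. It also had negative r with astrocyte markers (−0.60, permutation p = 0.00163, adjusted p = 0.00880, rho = −0.60, −0.51 without VHD 2 and Control 6, −0.63, −0.67 and −0.43 within cohorts) and microglia markers (−0.57, permutation p = 0.00399, adjusted p = 0.0144, rho = −0.60, −0.65 without Control 5 and VHD 3, −0.79, −0.61 and −0.12 within cohorts). GRIN2A went rather with pan-neuronal markers, at r = 0.72 (permutation p = 0.00016, adjusted p = 0.00144) and rho = 0.67, with r of 0.58 without LD 5 and VHD 4 and of 0.24, 0.96 and 0.43 within cohorts. GRIN2A with projection neuron markers had r = 0.51 (permutation p = 0.00782, adjusted p = 0.0235) and rho = 0.42. The r was weaker without Control 6 and Control 8 (0.31), and 0.40, 0.74 and 0.34 within cohorts.

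GRIN2D with striatal interneuron markers gave the highest r of the 54, at 0.88 (permutation p = 1e-05, the smallest possible, adjusted p = 0.00018) and rho = 0.77, with r of 0.86 without Control 6 and VHD 4 and of 0.91, 0.76 and 0.98 in cohorts 5, 7a and 7b. The list level is a mean of log2 values, in which scarce and abundant markers weigh alike. Control 6 had the highest level and the highest CALB2 (309 TPM), but the lowest NPY (195 TPM). Its interneuron markers summed to 1346 TPM, against a median of 1442 TPM. GRIN2D also followed oligodendrocyte precursor markers (r = 0.65, permutation p = 0.00198, adjusted p = 0.00972, rho = 0.61, r of 0.73 without VHD 3 and VHD 4 and of 0.67, 0.59 and 0.86 within cohorts). Its negative r with projection neuron markers (−0.69, permutation p = 0.00638, adjusted p = 0.0203, rho = −0.33) was −0.18 without Control 6 and Control 8. Within cohorts it was −0.69, 0.14 and −0.90, cohort 5 holding neither animal. GRIN2C passed with 1 list, interneuron markers, at r = −0.58 (permutation p = 0.00360, adjusted p = 0.0139) and rho = −0.44. The r of GRIN2C was −0.34 without Control 6 and VHD 4. Within cohorts it was −0.90, −0.46 and −0.68, cohort 5 again holding neither animal.

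**Figure D4:**
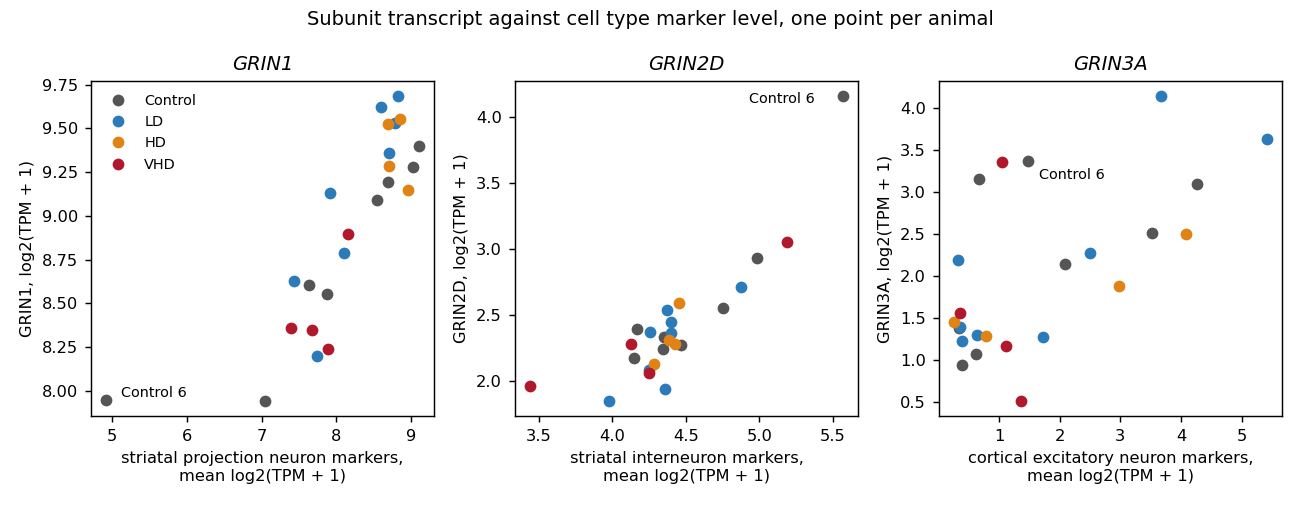
GRIN1 against striatal projection neuron markers, GRIN2D against striatal interneuron markers and GRIN3A against cortical excitatory neuron markers, as log2(TPM+1), with 1 point per animal and color for category. Control 6 lies low in the first panel and high in the second, and LD 4 is highest in cortical markers in the third.

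GRIN3A with cortical excitatory neuron markers had r = 0.62 (permutation p = 0.00122, adjusted p = 0.00823) and rho = 0.51, with r of 0.50 without Control 2 and LD 4 and of 0.56, 0.61 and 0.58 in cohorts 5, 7a and 7b. It followed oligodendrocyte precursor markers as well, at r = 0.67 (permutation p = 0.00021, adjusted p = 0.00162) and rho = 0.66, with r of 0.66 without VHD 3 and VHD 4 and of 0.53, 0.83 and 0.80 within cohorts. Interneuron markers gave r = 0.59 (permutation p = 0.00216, adjusted p = 0.00972) and rho = 0.62, with r of 0.45 without Control 6 and VHD 4 and of 0.58, 0.78 and 0.66 within cohorts. With projection neuron markers GRIN3A had r = −0.53 (permutation p = 0.00557, adjusted p = 0.0188) and rho = −0.54, with −0.53 without Control 6 and Control 8, but −0.84, 0.13 and −0.67 within cohorts. The animals with high GRIN3A thus included LD 4, Control 2 and LD 2, which had the most cortical markers. They also included VHD 2, Control 6 and Control 5, in which these markers summed to 7.62, 15.85 and 3.765 TPM. After TMM rescaling GRIN3A no longer passed with astrocyte (r of 0.61 before and 0.40 after) or pan-neuronal markers (0.51 and 0.35), nor GRIN2D with oligodendrocyte markers (0.49 and 0.43). GRIN2D with oligodendrocyte markers had rho = 0.15, and r of 0.10 without Control 6. Within cohorts 5, 7a and 7b its r was 0.76, 0.07 and 0.70, and Control 6 belonged to cohort 7b. Relations that passed only after TMM rescaling were those of GRIN1 with oligodendrocyte markers (−0.56), of GRIN2A with oligodendrocyte (−0.495), astrocyte (−0.555) and microglia markers (−0.58) and of GRIN2C with precursor markers (−0.53).

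The genes that varied most like each subunit were sought among 13636 others. For GRIN1 they included NOVA2 (r = 0.983), SYT5 (0.979), ENTPD6 (0.978) and SEZ6 (0.975), an RNA-binding protein, a synaptotagmin, a nucleotidase and a dendritic protein, and 289 genes reached r of 0.9. GPR155 (0.923) and NLK (0.908) came first for GRIN2A, and DGKH (0.916) and CSRNP3 (0.916) for GRIN2B. GRIN2C was less like any gene, with SLCO1C1, a thyroid hormone carrier of astrocytes and vessels, first at 0.805 and at 0.722 without Control 6. For GRIN2D the first was G6PC3 (0.910), which fell to 0.792 and place 18 without Control 6, while PNMA3 kept place 2 (0.906, and 0.847 without it). CALB2, one of the interneuron markers, stood at place 5 (0.895), and at place 37 without Control 6 (0.752). GRIN3A was most like GNG2 (0.970), CAMK2D (0.963), ELAVL4 (0.955), CADPS2 (0.952) and KCNC2 (0.948), and 26 genes reached r of 0.9. CAMK2D belongs to the kinase list and ELAVL4 to the pan-neuronal markers. These genes were chosen by their values, and no p is given for them.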

How the data were processed

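The deposited values were TPM, as the authors' file of 24 columns gave them, each column summing to between 999998 and 1000000, although the file carries the name of normalized counts, so limma on log2(TPM+1) stood in for a count test. By the authors' account reads passed FastQC, STAR 2.5.2b with the MacaM assembly and HTSeq 0.6.1p1, and their own tests used DESeq2. The record and the paper differ on strand and read pairing, gene lengths are not stated, and read counts per gene were not used here, so no counting error is given. Spreadsheet software had turned 27 symbols into dates, none of them a subunit.

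Genes averaging at least 1 TPM were tested with limma 3.58.1 (trend) in R 4.3.3, in 1 model of the 3 study groups, in the 8 HD and VHD animals, over cohorts by F test, and as slopes on intake with drinking group in the model. P values were adjusted by Benjamini-Hochberg over all genes tested. Ratios used all 12870 assignments of animals, 2-sided, and correlations used 100000 permutations, or every pairing for 8 animals. The scripts ran in Python 3.11.15 with numpy 2.4.6, scipy 1.17.1, pandas 2.3.3 and matplotlib 3.10.9, and were tested on simulated data. Alternatives were pseudocounts of 0.1 and 4, no floor or a floor of 10 TPM, TMM rescaling (30% of M and 5% of A trimmed), cohort or marker levels in the model, subsets of groups or cohorts, and each animal left out in turn.

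Subunits, partners and markers were chosen with earlier results of these data known. Partners are named if they are 1 of the 2 most abundant of their list or of the 2 with the largest log2 difference in a comparison of the study groups, and other genes by the rule stated beside them. Endothelial markers, 6 of 7 in the table, summed to between 125.2 and 226.3 TPM, SLC2A1 being the most abundant, and microglia markers to between 340.6 and 937.8 TPM, with C1QB first. A gene among those most like GRIN1 is not reported here.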

Additional observations from a re-analysis of the deposited data

Results flagged for a closer look

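Dixon's ratio was used to look for a value far from the rest of its group for each subunit in controls, LD*, HD*, HD and VHD animals, and 3 of 30 groups held one, where chance alone gives about 1 in 20. GRIN1 in VHD animals was 475.6 TPM in VHD 1, against 301.6 to 327.9 TPM in the other 3. GRIN2C in controls was 8.993 TPM in Control 6, against 13.42 to 17.29 TPM in the other controls. GRIN2D in controls was 16.83 TPM in Control 6, against 3.496 to 6.607 TPM in the other controls.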

How the results depend on the processing

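No paired analysis was possible because the replicate numbers only name animals, in order of deposit. The 3 alternatives (striatal projection neuron or cortical marker level in the model, and 8 libraries that stood apart left out) added to the plan were chosen after seeing the data. Not counting the runs that left out 1 animal, of 376 values of single subunits, 325 kept direction and call, 15 weakened and 36 reversed; of 162 correlations, 138 kept, 5 weakened, 8 strengthened and 11 reversed; of 68 counts of genes, 63 kept and 5 moved; of 24 ratio values, 20 kept and 4 reversed. Groups of 8 or 4 animals with 1 library each, and cohorts that not every group shared, limit the comparisons. What follows gives log2 differences, and the cause of each change was not tested.

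With 4 groups in one model 0 genes were called in VHD against HD. With the pan-neuronal level, VHD against HD gave 442 genes, GRIN2C −0.17 and GRIN3A 1.34. With the striatal level, HD* against controls gave GRIN1 −0.0473, GRIN2A −0.0815 and GRIN2B −0.222, HD* against LD* gave GRIN2B −0.0124, LD* against controls gave GRIN2B −0.21 and GRIN3A 0.201, and VHD against HD gave GRIN2D −1.32 and 0 genes. With the cortical level, GRIN2B in HD* against LD* was −0.00134 and GRIN3A in VHD against HD 0.123, with 658 genes. Without the 8 libraries, HD* against controls gave GRIN1 −0.106, GRIN2A −0.0762 and GRIN2B −0.0337, HD* against LD* gave GRIN2B −0.229, GRIN2D −0.0117 and GRIN3A 0.0792, LD* against controls gave GRIN2C −0.12, and VHD against HD gave GRIN3A 0.286 and 25 genes. With cohort in the model, HD* against controls gave GRIN1 −0.00646, GRIN2A −0.213 and GRIN2B −0.271, and HD* against LD* gave GRIN2B −0.573. In cohorts 5 and 7a only, HD* against controls gave GRIN2A −0.195 and GRIN2B −0.297. In cohort 7a only, HD* against LD* gave GRIN2B −0.456 and GRIN2D −0.0546. With a pseudocount of 0.1, GRIN2D in VHD against HD was −0.00184, the HD* effect of GRIN2A in cohort 7a minus 5 was −0.0415, the LD* effect of GRIN3A in 7b minus 7a was 0.00322 and r of GRIN2D with cortical markers was 0.00956. With a pseudocount of 4, GRIN2B was −0.000301 in HD* and −0.00665 in LD* against controls, and GRIN3A was 0.00156 in LD* against controls and 0.00788 in VHD against HD.

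After TMM rescaling the LD* effect in 7b minus 7a was 0.0253 for GRIN2A and 0.0909 for GRIN3A, and r was −0.26 for GRIN1 with oligodendrocyte precursor markers, −0.121 for GRIN2A with GRIN2C, −0.337 for GRIN2A with endothelial and −0.211 with interneuron markers, −0.0939 for GRIN2B with GRIN2C, −0.136 for GRIN2B with precursor markers, 0.174 for GRIN2C with endothelial and 0.276 with microglia markers, −0.408 for GRIN3A with endothelial markers and 0.0431 for GRIN2D with intake in HD*. As ratios of TPM+1, GRIN2A/GRIN1 in LD* against controls was −0.0415 and GRIN2B/GRIN2A in HD* against controls −0.0322. With assignments inside shared cohorts, GRIN2B/GRIN1 in HD* against LD* was −0.0636 and GRIN2B/GRIN2A in HD* against controls −0.0287.

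Leaving out each animal in turn, HD* against controls ran from −0.0703 to 0.251 in GRIN2A and from −0.179 to 0.217 in GRIN2B. LD* against controls ran from −0.184 to 0.212 in GRIN2B, from −0.0174 to 0.107 in GRIN2C and from −0.309 to 0.136 in GRIN3A. HD* against LD* ran from −0.122 to 0.16 in GRIN2B and from −0.0588 to 0.105 in GRIN2D. VHD against HD ran from −0.000155 to 0.215 in GRIN2C, from −0.229 to 0.135 in GRIN2D and from −0.694 to 0.255 in GRIN3A, with 476 to 4651 genes called. The intake slope ran from −0.749 to 0.024 in GRIN2B, from −0.211 to 0.0705 in GRIN2C and from −0.988 to 0.269 in GRIN3A, with 0 to 1 genes called. GRIN2A/GRIN1 ran from −0.223 to 0.0374 in HD* and from −0.136 to 0.152 in LD* against controls, and from −0.246 to 0.0418 in HD* against LD*. In HD* against controls GRIN2B/GRIN1 ran from −0.242 to 0.0395 and GRIN2B/GRIN2A from −0.0977 to 0.0952.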
